A study of Mus musculus with 8 samples.

Results

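The genes described here are the 6 members of the 14-3-3 family that are read in brain, namely Ywhab, Ywhae, Ywhag, Ywhah, Ywhaq and Ywhaz, out of 22430 genes in the table. They were picked by symbol and matched to the table by Ensembl identifier, and the family was taken up because a difference in it between young and aged brain was already known from these same counts. All 6 passed the limit on low counts, a mean of more than 5 reads per library, as did 9375 genes in all. RNA came from brain hemispheres of male C57Bl/6JRj mice, 4 young adult animals aged 6 months (6m) and 4 aged animals of 24 months (24m), for which no genetic change or treatment is named in either group. One nanopore (ONT) library was sequenced per mouse. A hemisphere mixes all cell types of the brain, so that fewer cells of a type and less RNA per cell cannot be told apart in these values.

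14-3-3 proteins are adaptors that work as dimers, each subunit holding a groove that grips a short stretch of a partner protein once a serine or threonine in it has been phosphorylated. Binding can hold the partner, called a client, in the cytoplasm, mask a site on it, or change its activity. The proteins are among the most abundant soluble proteins of neurons, and their release into cerebrospinal fluid is used in the clinic as a sign of rapid neuronal damage, as in Creutzfeldt-Jakob disease. Each member is a separate gene: Ywhab encodes 14-3-3 beta, Ywhae epsilon, Ywhag gamma, Ywhah eta, Ywhaq theta (also called tau) and Ywhaz zeta. Sfn, which encodes 14-3-3 sigma, is the member typical of epithelia.

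On GRCm39 the genes lie at chr5:135935938-135965086 on the minus strand (Ywhag, ENSMUSG00000051391), chr5:33176114-33185311 on the plus strand (Ywhah, ENSMUSG00000018965), chr2:163836007-163860509 on the plus strand (Ywhab, ENSMUSG00000018326), chr11:75623695-75658554 on the plus strand (Ywhae, ENSMUSG00000020849), chr12:21439749-21467787 on the minus strand (Ywhaq, ENSMUSG00000076432) and chr15:36770975-36797340 on the minus strand (Ywhaz, ENSMUSG00000022285). The members are alike enough that the separation of their reads matters to every value that follows. The longest stretch in which all 6 proteins have the same residues is 21 residues long, and the 63 coding bases behind it are given for each gene, 5′ to 3′ on the coding strand, because they show how far the genes differ even where the proteins do not. Capitals mark the bases that differ from Ywhag.
Ywhag: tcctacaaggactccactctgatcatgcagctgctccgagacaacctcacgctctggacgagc
Ywhah: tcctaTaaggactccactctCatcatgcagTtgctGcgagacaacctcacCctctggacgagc
Ywhab: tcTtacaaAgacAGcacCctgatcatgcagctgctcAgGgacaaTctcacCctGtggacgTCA
Ywhae: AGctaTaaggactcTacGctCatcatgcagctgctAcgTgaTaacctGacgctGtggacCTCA
Ywhaq: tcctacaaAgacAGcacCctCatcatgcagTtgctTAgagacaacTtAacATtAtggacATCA
Ywhaz: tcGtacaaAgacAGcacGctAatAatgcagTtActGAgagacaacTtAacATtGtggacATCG
The stretch lies in coding exons at chr5:135939888-135939950 on the minus strand for Ywhag, chr5:33184441-33184503 on the plus strand for Ywhah and chr11:75650176-75650238 on the plus strand for Ywhae. For Ywhab (chr2:163858068-163858600, plus strand), Ywhaq (chr12:21441405-21445016, minus strand) and Ywhaz (chr15:36773010-36775533, minus strand) the outer coordinates span an intron. Ywhah differs from Ywhag at 5 of the 63 bases, Ywhab at 13, Ywhae at 15, Ywhaq at 17 and Ywhaz at 20.

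Over the whole protein, 132 of 260 alignment columns (50.8%) held the same residue in all 6 members. The closest pair were Ywhag and Ywhah at 87.0% protein identity, with Ywhab and Ywhaz at 86.9%, and the most distant pair were Ywhae and Ywhah at 62.7%. In the coding bases Ywhag and Ywhah were 79.0% identical, and the longest run shared by any pair of members was 30 bases, between these same genes. Near-identical copies, taken as annotated transcripts with at least 95% identity over at least 200 bases, were found for Ywhaq (8 genes), Ywhaz (1) and Ywhah (1), and none for Ywhab, Ywhae or Ywhag. One of the copies of Ywhaq covered more than 50% of its transcript. The only 1 of the 8 in the count table was Cdk5rap2, a protein-coding gene that matched 435 bases (19.8%) of the transcript. It had 75 reads over all libraries. Counts of Ywhaq, Ywhaz and Ywhah are therefore less certain than those of the other members.

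**Figure D1:**
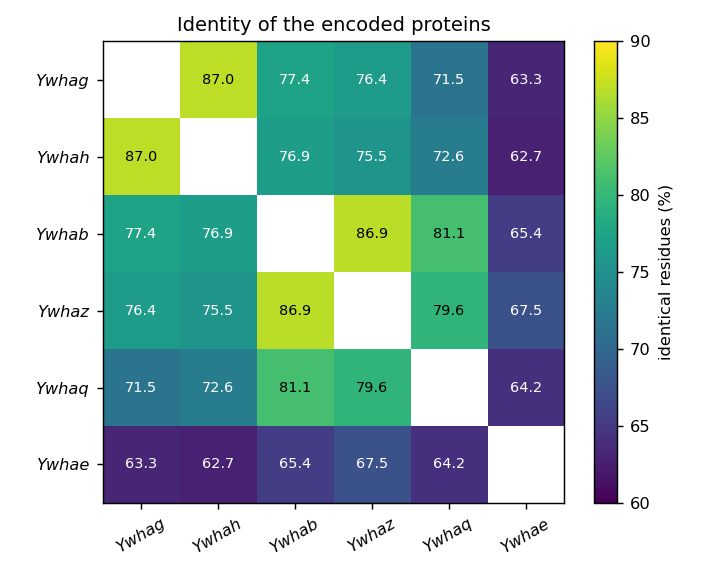
Pairwise protein identity (percent) between the 6 members, from a multiple alignment of their canonical GRCm39 transcripts. The cells run from 62.7% for Ywhae and Ywhah to 87.0% for Ywhag and Ywhah.

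The 8 libraries held 573152 to 843706 reads on genes at 6m and 660398 to 1255424 at 24m. Mitochondrially encoded mRNAs took 8.67 to 10.9% of reads at 6m and 6.48 to 8.94% at 24m. Levels are given as CPM, read counts brought to a common library size with TMM scaling. The limit that a count of 0 allows is 3 reads, or 2.39 to 5.23 CPM before TMM scaling. All 6 members lay far above it. Their mean counts exceeded those of 83.1% (Ywhab) to 98.6% (Ywhah) of tested genes. Sfn had 10 reads over the 6m libraries and 9 over the 24m libraries, with 1 to 4 per library, and was not tested.

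Ywhah was the most abundant member on any scale. Division by length assumes that longer transcripts give more reads, which was not tested for these nanopore reads. Per kilobase of its canonical transcript Ywhah stood at 579 ± 36.1 CPM per kb at 6m (SD, n = 4) and 638 ± 22.6 at 24m. At 6m it was followed by Ywhaq (158 ± 16.1), Ywhae (80.9 ± 10.5), Ywhaz (58.5 ± 11.6), Ywhab (28.6 ± 4.94) and Ywhag (14.8 ± 3.06). Only Ywhae and Ywhaz, as neighbours in that order, had ranges that overlapped. At 24m the order was Ywhah, Ywhaq (217 ± 20.1), Ywhae (119 ± 4.98), Ywhaz (105 ± 22.2), Ywhag (51.4 ± 13.5) and Ywhab (40.6 ± 5.84), with overlap between Ywhae and Ywhaz and between Ywhag and Ywhab. The order within each age was the same without division by length, but the overlaps were not. In CPM, Ywhag and Ywhab overlapped at 6m (51.7 to 86.6 and 72.3 to 107), and at 24m Ywhag (189 to 330.2) lay above Ywhab (101 to 143) and overlapped Ywhaz (262 to 411). Ywhaq and Ywhae overlapped in CPM at both ages.

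The choice of the family rests on the counts of these 8 libraries, so the age difference of the members is given as a description. Where members are said to pass the limits of the fit across all genes, this too only describes them. In Ywhag, whose human counterpart is a gene for early-onset epileptic encephalopathy, the 6m libraries had 42, 43, 57 and 69 reads and the 24m libraries 133, 264, 258 and 247. Scaled, these were 51.7, 77.8, 70.9 and 86.6 CPM at 6m and 203, 274, 330.2 and 189 CPM at 24m. Every 24m library lay above every 6m library with a wide gap, and the 4 aged libraries also differed more among themselves (CV 26.3%, against the 6.93% that counting alone gives) than young ones (20.7%, against 14.1%). The means of 71.8 ± 14.8 and 249 ± 65.6 CPM (SD, n = 4) correspond to a fitted log2FC of 1.80 (SE 0.171), or 3.47-fold. Ywhaz, often used as a reference gene in quantitative PCR, had 107, 101, 155 and 173 reads at 6m and 172, 337, 321 and 363 at 24m. In CPM it stood at 132, 183, 193 and 217 in young brains and 262, 350.4, 411 and 278 in aged ones. The groups did not overlap, but the lowest aged and the highest young library were closer than in Ywhag. Its log2FC was 0.84 (SE 0.141), or 1.80-fold.

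The next 3 members differed less. Ywhae, which is needed for neuronal migration in the developing cortex, had 239, 196, 290 and 222 reads at 6m and 320, 433, 362 and 641 at 24m. At 294, 354, 361 and 279 CPM the young libraries were all below the aged ones at 488, 450.2, 463 and 492 CPM. The log2FC was 0.56 (SE 0.0988), and the aged libraries were close together, with a CV of 4.20%. Ywhaq had 257, 216, 288 and 254 reads in young brains and 282, 463, 360 and 697 in aged brains. Its CPM of 316, 391, 358 and 319 at 6m lay below the 24m values of 429.8, 481, 461 and 535, with a log2FC of 0.47 (SE 0.0985), in a gene that shares sequence with many copies. Ywhab, a partner of Raf kinases, had 65, 40, 86 and 68 reads at 6m and 66, 114, 100 and 186 at 24m. Here the groups overlapped: the 6m libraries stood at 80.0, 72.3, 107 and 85.4 CPM and the 24m libraries at 101, 119, 128 and 143 CPM, with the aged replicate 1 below the young replicate 3. Its log2FC was 0.51 (SE 0.149).

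Ywhah, the member with most reads, differed least. It had 805, 612, 796 and 877 reads in young and 739, 1105, 884 and 1584 reads in aged libraries. The CPM were 991, 1107, 991 and 1101 at 6m against 1126, 1149, 1131 and 1215 at 24m. Even so the groups did not overlap, because the spread was small, with a CV of 6.24% at 6m and 3.54% at 24m. The log2FC was 0.14 (SE 0.0837), and it was 0.39 with quantile normalization of the counts before DESeq2.

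**Figure D2:**
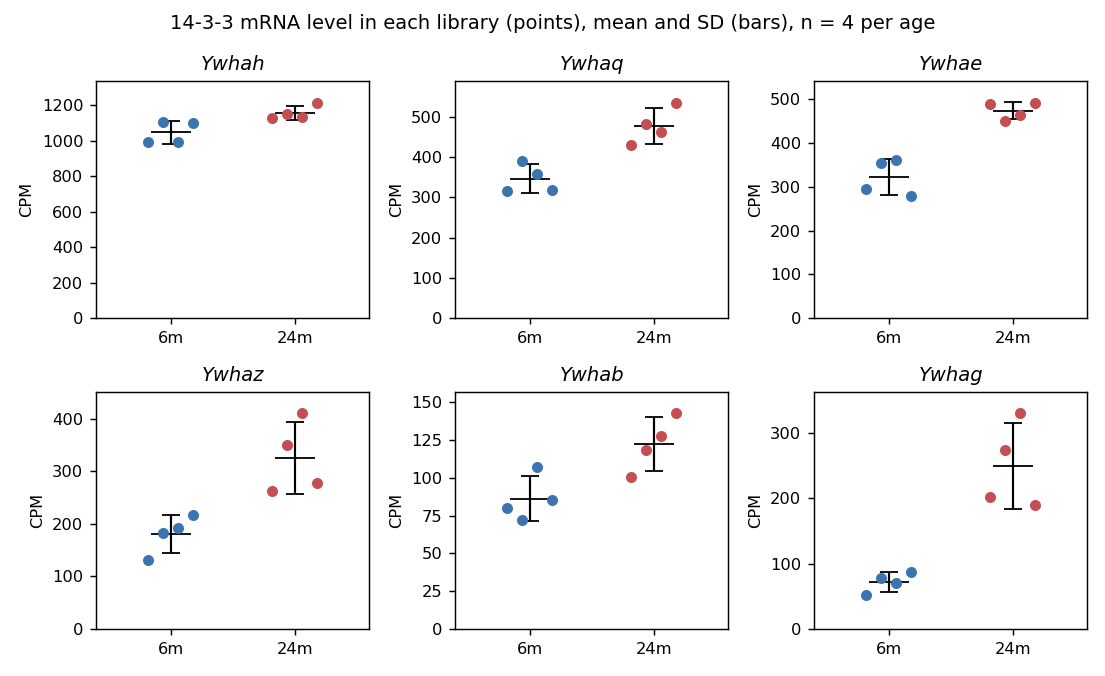
TMM-scaled CPM of each member in the 4 libraries of each age, with the mean and SD; each panel has its own vertical axis from 0. The 24m points lie above all 6m points in every panel but that of Ywhab, and the gap is widest, relative to the level, in Ywhag.

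Placed against all genes, the 6 log2FC were all positive, with a median of 0.53, while the median over the 9375 tested genes was -0.003 and 4657 of them were positive. Of the tested genes, 14.5% were changed between the ages (an adjusted p of at most 0.05 in edgeR's quasi-likelihood test and an absolute log2FC of at least 0.58), with 10.3% changed and higher at 24m and 4.17% changed and lower. Of these 1359 changed genes 968 were higher, or 71.2%, a share that was 84.5% with library sizes in place of TMM factors and 59.2% with limma-voom after quantile normalization. Ywhag and Ywhaz passed both limits, 2 of 6 members, and none was lower. The number was 4 with library sizes in place of TMM factors and 4 without 6m replicate 3. By the adjusted p alone, 12.3% of tested genes were higher at 24m, and 5 of 6 members were, with Ywhah the exception. In 11.1% of tested genes, every 24m library lay above every 6m library, which held for 5 of 6 members, with Ywhab the exception. These counts describe the members and are no evidence on them, since the contrast took part in their choice. The log2FC of Ywhag was above that of 99.2% of tested genes, with 78 genes higher, that of Ywhaz above 90.7%, and that of Ywhah above 61.5%.

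**Figure D3:**
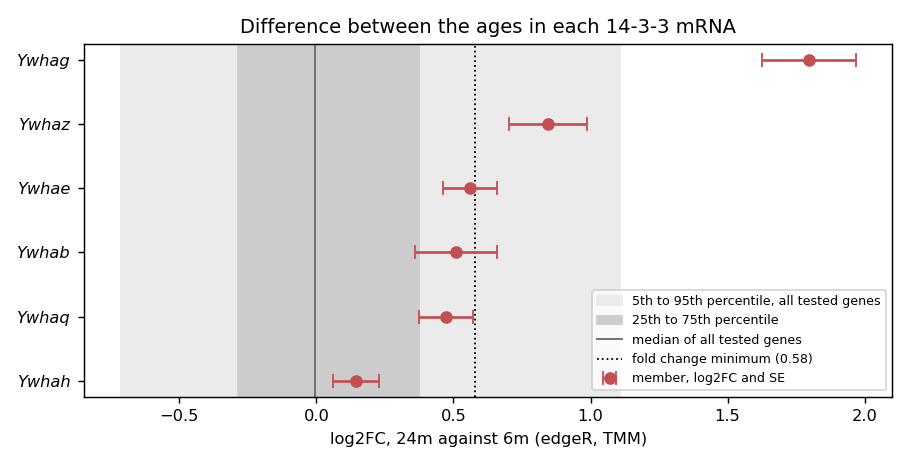
Fitted log2FC (24m against 6m) of the 6 members with SE, beside the middle of the distribution over all 9375 tested genes. Ywhag at 1.80 lies past the 95th percentile of 1.11 and Ywhah at 0.14 lies within the interquartile range of -0.29 to 0.37.

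Together the members held 1865, 2184, 2081 and 2088 CPM at 6m and 2610, 2824, 2924 and 2852 CPM at 24m. The groups did not overlap, and the mean of the aged libraries was 1.36 times that of the young ones. As a share of all reads, the sum was 0.198 ± 0.0133% at 6m and 0.291 ± 0.0216% at 24m (SD, n = 4). The make-up of the sum also differed, in a measure that does not depend on scaling between libraries. Ywhag made up 2.77, 3.56, 3.41 and 4.15% of the summed reads at 6m and 7.77, 9.72, 11.3 and 6.64% at 24m, so that every aged library exceeded the highest young one. Ywhah made up 53.1, 50.7, 47.6 and 52.7% at 6m and 43.2, 40.7, 38.7 and 42.6% at 24m, again without overlap. Its mean share was lower by 9.75 percentage points, while its own level was not. The share of Ywhaz was 8.77 ± 1.41% and 11.6 ± 2.04%, with overlapping ranges, and those of Ywhae, Ywhaq and Ywhab differed by at most 1.26 percentage points, with overlapping ranges.

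**Figure D4:**
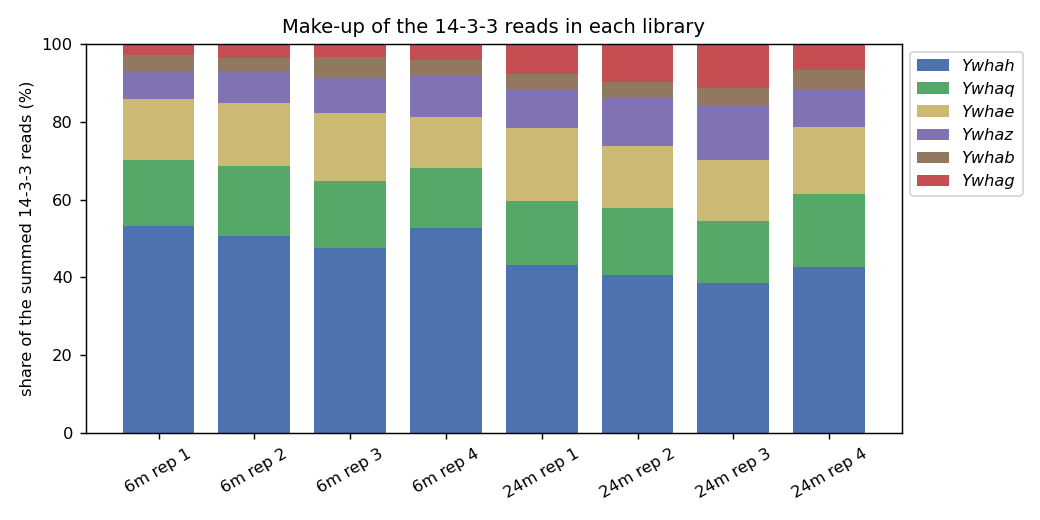
Share of each member (percent) in the summed 14-3-3 reads of each of the 8 libraries. The Ywhah segment covers 47.6 to 53.1% at 6m and 38.7 to 43.2% at 24m, and the Ywhag segment 2.77 to 4.15% and 6.64 to 11.3%.

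The ratio of one member to another in the same library needs no sum. For each read of Ywhag there were 15.0 ± 2.84 reads of Ywhah at 6m and 4.90 ± 1.34 at 24m. Per read of Ywhag there were 2.55, 2.35, 2.72 and 2.51 reads of Ywhaz in young libraries and 1.29, 1.28, 1.24 and 1.47 in aged libraries. This ratio varied little within an age, although both genes varied by 19.9% or more in CPM (CV). In contrast, Ywhaq and Ywhae kept a ratio near 1 in both ages, with 1.08 ± 0.0637 reads of Ywhaq per read of Ywhae at 6m and 1.01 ± 0.0936 at 24m.

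Some cell type markers differed between the ages as well, and their part in the values above was not tested. The sum of 10 neuron markers was 4393 to 4660 CPM at 6m and 4765 to 4913 CPM at 24m, a ratio of 1.06, with Snap25 changed and higher and Map2 changed and lower. Per 100 reads of these neuron markers there were 1.18 to 1.88 reads of Ywhag at 6m and 3.98 to 6.72 at 24m, and 42.4 to 46.9 against 54.1 to 59.9 of the 6 members together. On this scale the ranges of Ywhah (21.4 to 23.9 and 23.0 to 25.5) and Ywhab (1.55 to 2.31 and 2.08 to 2.99) overlapped between the ages, and those of the other 4 members did not. Sums of 7 oligodendrocyte markers (1937 to 2496 and 2652 to 3507 CPM, 2 changed and higher, among them Mbp) and of 8 microglia markers (675 to 745 and 845 to 1084 CPM, 1 changed and higher, Tmem119) did not overlap between ages. The sums of 8 astrocyte, 5 endothelial and 4 choroid plexus markers overlapped, at ratios of 1.01, 0.750 and 0.911. Of the 7 astrocyte markers tested, Gfap, Slc1a3 and Gja1 were changed and higher and Slc1a2 was changed and lower. Of the microglia markers 6 of 8 were tested, of the endothelial 2 of 5 and of the choroid plexus 3 of 4. In the remaining lists every marker was tested. Over all tested genes 10.3% were changed and higher and 4.17% changed and lower. All 5 blood markers were changed and lower, with overlapping sums of 6090 to 10032 CPM at 6m and 3350.4 to 6283 CPM at 24m. No defining marker was at 0 in all libraries.

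The log2FC also differed across genes grouped by the annotated length of their transcripts' ends. Tested genes in the third quartile by length of the 3′ UTR (the untranslated end of the mRNA) had a median log2FC of 0.25, those in the top quartile 0.10, those in the second 0.02 and those in the lowest -0.23. Of the third quartile 19.8% were changed and higher, of the top quartile 15.0%, of the second 3.86% and of the lowest 2.48%. The shares changed and lower were 2.87%, 5.06%, 2.14% and 6.64% in the same order. Ywhae and Ywhag, whose canonical 3′ UTRs are 3056 and 3911 bases long, are in the top quartile, and Ywhab, Ywhaq and Ywhaz in the third. Ywhah, with 771 bases, is in the second, and the part of UTR length in the members' values was not tested.

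Among 2 antisense lncRNAs annotated against exons of Ywhag, 1 overlaps 269 and the other 164 exon bases, and an antisense RNA overlaps 520 exon bases of Ywhaq. None of these was in the table, and where counting did not use strand their reads could not be told apart from those of the gene.

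The genes whose log2 CPM ran most like that of Ywhag over the 8 libraries, among those with a mean count of at least 50, were chosen by the root mean square difference of values centred on each gene's mean. The nearest was Npcd, at 0.192 log2 units, with 37.0 ± 6.65 CPM at 6m and 107 ± 37.5 at 24m. Its span overlaps Nptxr and Cbx6 on the same strand, so its reads may be split with theirs. It was followed by Kcnab2, a beta subunit of voltage-gated potassium channels, at 0.226 (35.1 ± 11.3 and 96.7 ± 23.0 CPM). Pip5k1c, a kinase that makes the phosphoinositide used at synapses, followed at 0.256 and Pcdha4b, a clustered protocadherin that shares its last exons with other genes of its cluster, at 0.292. These 4 genes were all changed and higher at 24m, with log2FC of 1.37 to 1.82. Likeness was measured over libraries of both ages, so the choice itself favours genes with such a difference, and it is no separate result. Ywhag was farther from every other member: its nearest was Ywhaz at 0.464, and Ywhah at 0.854 was the most distant. Between members the smallest difference was that of Ywhae and Ywhaq, at 0.111. Nearest to Ywhaz was Syngr3, a synaptic vesicle protein (0.126), to Ywhae Cacnb3, a calcium channel subunit (0.0914), and to Ywhah Gabarapl2, an autophagy protein (0.0495). Those nearest to Ywhab and Ywhaq were Trim8 (0.0953) and Cxxc5 (0.0480).

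What the family works with was looked at in 4 lists, namely proteins that 14-3-3 binds in signalling (21 genes), proteins it binds that are characteristic of neurons (21), kinases that create its binding sites or relate to them (22) and phosphatases (9). Of these 73 genes 53 were tested, and 8 were changed and higher and 5 changed and lower, which is 24.5% against 14.5% of all tested genes. The median log2FC over the 53 was 0.08. Over all tested genes 10.3% were changed and higher and 4.17% changed and lower. Of 17 tested kinases 6 were changed and higher and 2 changed and lower (47.1%, median 0.44). The 9 phosphatases had 2 higher and 0 lower (22.2%, median 0.18). Of 11 signalling clients 0 were changed and higher and 1 lower (9.09%, median -0.30), and of 16 neuronal clients 0 were higher and 2 lower (12.5%, median -0.03), beside the 14.5% of all tested genes. Differences between the lists were not tested. The lists too were drawn up with earlier results of these data known. Their shares and the adjusted p values below therefore describe the genes and are no evidence on the lists.

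Among the kinases, Camk2a, the alpha subunit of the calcium/calmodulin kinase of synapses, rose from 20.2 ± 2.83 to 64.9 ± 23.9 CPM (log2FC 1.64, SE 0.248; edgeR adjusted p = 4.39e-05). Rps6ka2, a ribosomal S6 kinase, had 2 to 5 reads at 6m and 6 to 16 at 24m (log2FC 1.56, SE 0.413; edgeR adjusted p = 0.00876). In the 18 alternatives that tested it, the call was lost with DESeq2 on quantile-normalized counts. Rps6ka2 shares 417 same-strand exon bases with Gm49721, which had 544 reads over all libraries, so its few reads may be split with that gene. Prkacb, a catalytic subunit of protein kinase A, rose from 12.4 ± 5.71 to 29.3 ± 7.84 CPM, with overlapping ranges (log2FC 1.26; edgeR adjusted p = 0.00395). The other 3 that rose were Camk2b, Mark2 and Mark4, a synaptic kinase and a pair of kinases that act on microtubule-binding proteins. The related Mark3 fell from 82.6 ± 11.1 to 49.3 ± 3.49 CPM (log2FC -0.75; edgeR adjusted p = 0.00138). Of the kinases with most reads that were not changed, Prkaca had a log2FC of 0.56, just under the fold limit, and Prkcz of 0.18. Prkaca was changed in 7 of 20 alternatives, among them the fits without 6m replicate 1 (0.59), 6m replicate 4 (0.66) and 24m replicate 4 (0.69).

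Among the neuronal clients, Gsk3b, a kinase and client whose low counts of 9 to 22 and 2 to 7 reads still did not overlap, fell with a log2FC of -2.31 (SE 0.411; edgeR adjusted p = 0.000291). Mapt, which encodes the microtubule protein tau, fell from 56.4 ± 9.07 to 35.3 ± 8.01 CPM (log2FC -0.74; edgeR adjusted p = 0.00674), a call lost without 24m replicate 4, where the log2FC was -0.57, and with DESeq2 on quantile-normalized counts. Gabbr1, a GABA receptor subunit and one of the neuronal clients with most reads, stood at 504 ± 37.3 and 533 ± 34.5 CPM and was not changed. In signalling, Irs2, an insulin receptor substrate, fell from 6 to 21 reads at 6m to 5 to 8 at 24m (log2FC -1.28; edgeR adjusted p = 0.0145), a call lost without 6m replicate 1 (-1.02) or without 24m replicate 4 (-1.08). Hdac5 and Tsc2, of the signalling clients with most reads, had log2FC of -0.10 and -0.36 and were not changed.

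Of the phosphatases, Ppp3r1, the regulatory subunit of calcineurin, rose from 43.0 ± 4.25 to 100.4 ± 20.2 CPM (log2FC 1.26, SE 0.170; edgeR adjusted p = 9.53e-06). It shares same-strand exon bases with another gene. Ppp1cb, a catalytic subunit of protein phosphatase 1, rose from 26.1 ± 7.04 to 50.3 ± 11.97 CPM, with overlapping ranges (log2FC 0.96; edgeR adjusted p = 0.00261). The phosphatase genes with most reads, Ppp2r1a and Ppp1ca, had log2FC of -0.15 and -0.09 and were not changed. Camk2b, Mark2, Hdac5, Tsc2 and Ppp1ca share exon bases with counted genes on the opposite strand, and reads of such pairs could not be told apart where counting did not use strand.

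**Figure D5:**
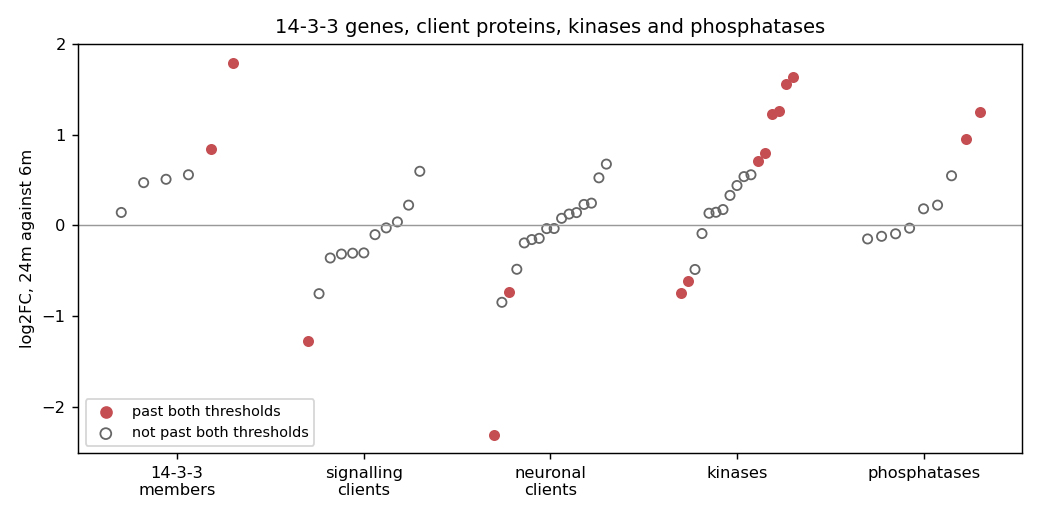
Fitted log2FC (24m against 6m) of the 6 members and of the tested genes of the 4 lists, with filled points for changed genes. In the lists these run from Gsk3b at -2.31 to Camk2a at 1.64. Kinases are 6 of the 8 changed and higher genes and 17 of the 53 tested genes.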

How the data were processed

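RNA of brain hemispheres of 4 young (6m) and 4 aged (24m) male mice was sequenced by the authors on a MinION and mapped to GRCm39 with minimap2 2.24 (from the submitters' processing notes), and counted on Ensembl genes with featureCounts, so that the deposited table holds raw counts. Strand and multi-mapping settings of the counting, and whether the direct RNA kit of the methods or the poly(A) kit of the labels was used, were not settled. All 8 columns of counts were mapped to samples by their labels. The members and lists were chosen with earlier results of these data known. Named were all members and Sfn, for each list up to 3 changed genes in each direction with the largest fold and the 2 unchanged tested genes with most reads, and the genes most alike to each member. Some genes that this rule names are not reported here.

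R 4.3.3 and edgeR 4.0.16 (quasi-likelihood, TMM factors, age alone) were used on genes averaging over 5 reads, and the SE of log2FC came from the F statistic. The limits for a change were 0.05 for the Benjamini-Hochberg adjusted p and 0.58 for log2FC in either direction. Likeness used log2 CPM with a prior count of 2. Alternatives used edgeR with other factors or filters, with a replicate block, or with 1 library left out. They also used DESeq2 1.42.0 on raw or on quantile-normalized, rounded counts, and limma-voom (limma 3.58.1) with its own quantile normalization. The fits were tested on simulated counts. Transcripts and 3′ UTRs came from GENCODE vM39 (22281 of 22430 genes matched). Alignments were made with MAFFT 7.526 and copies searched with BLAST+ 2.17.0. The p-values set the age difference against the spread between libraries, each from its own mouse, so that mouse and library preparation cannot be told apart. The limit for a count of 0 and the CV that counting alone gives cover counting error only. The SD and SE include the spread between libraries.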

Additional observations from a re-analysis of the deposited data

Results flagged for a closer look

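In 66 groups of 4 libraries, 3 had a library that stood apart from the other 3 by Dixon's test, where chance gives about 1 in 20. Total reads of 6m replicate 2 were 573152, against 818963 to 843706 in the other young libraries. Tsc2 had 155 CPM in 6m replicate 1, and the others had 132 to 134 CPM. Ppp1ca had 662 CPM in 24m replicate 1, where the others had 453 to 457 CPM. No 14-3-3 member had such a library in either age.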

How the results depend on the processing

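Ywhag and Ywhaz passed both limits in all 19 alternatives (log2FC 1.64 to 1.94 and 0.72 to 0.96), which is a description, since this contrast took part in the choice of the family. Ywhae passed both limits in 8 alternatives, Ywhab in 3, and Ywhaq and Ywhah in none. The number of members changed and higher was 4 with library sizes in place of TMM factors, 5 with the adjusted p alone, and between 2 and 4 when 1 library was left out, with 4 without 6m replicate 3. The log2FC of Ywhah was 0.39 with DESeq2 on quantile-normalized counts, 0.37 with limma-voom after quantile normalization, and 0.25 with library sizes alone, whose median over all genes was 0.10. In all, 834 genes (205 lower) were changed with DESeq2 on raw counts, against 1359 (391 lower), and 809 (193 lower) on quantile-normalized counts, 2038 (883 lower) with the adjusted p alone, 223 lower with library sizes alone, 222 lower with more than 5 reads required in every library, and 989 to 1594 when 1 library was left out; the cause was not tested. The mice share only replicate numbers. Correlations of deviations between same-numbered libraries were -0.16 to 0.06, and only 6m replicate 1 was most correlated with the 24m library of its own number. Whether same-numbered libraries shared a run or day was not settled. With the replicate block 1308 genes, 2 members and 13 partner genes were changed. Of the changed and lower genes, kinases numbered 1 in place of 2 in 8 alternatives, signalling clients 0 in place of 1 in 4, and neuronal clients 1 in place of 2 in 2; neuronal clients changed and higher numbered 1 in place of 0 in 3. Low counts of Gsk3b, Irs2 and Rps6ka2 limit their precision. Irs2 and Rps6ka2 were left untested by edgeR's own filter and by that of more than 5 reads in every library. Gsk3b was left untested by the latter. In those fits these genes could not be called, which is not the same as a call lost.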
